A study of Rattus norvegicus with 6 samples.

Results

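The 10 genes described here are the transcription factors Snai1, Snai2, Twist1, Twist2, Zeb1 and Zeb2, the cadherins Cdh1 and Cdh2, the intermediate filament gene Vim and the calcium-binding protein gene S100a4. They were chosen by name as the usual readouts of epithelial-mesenchymal transition (EMT), out of 21210 gene names with an annotated transcript, and 40 of the 70376 transcripts in the table carry their names. The lungs came from Sprague-Dawley rats, 7 weeks old at the start. The 3 PF model rats had received a single instillation of 7 mg/kg bleomycin into the trachea, the 3 control rats had received the same volume of saline, and the lungs were taken at day 28 in both groups. Each rat gave 1 library of rRNA-depleted total RNA from lung tissue. A lung library mixes many cell types, so fewer cells of a type and less RNA per cell cannot be told apart in any value below. PF model 3 stood apart in cardiac muscle markers, with Myh6 at 5.11 FPKM (a fragment count scaled to the length of the transcript and the depth of the library) beside 0 to 0.0339 FPKM in the other libraries and Tnnt2 at 4.65 FPKM beside 0.432 to 0.708 FPKM.

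In EMT, epithelial cells lose their cell-cell junctions and take on features of mesenchymal cells. Factors of the SNAIL, TWIST and ZEB families drive this program, and the SNAIL and ZEB proteins bind E-box sequences in target promoters, with the E-cadherin gene Cdh1 as the best known target they repress. N-cadherin (Cdh2), vimentin (Vim) and S100A4, also called fibroblast-specific protein, are the classical mesenchymal readouts. In the lung, E-cadherin holds the alveolar and airway epithelium together, while vimentin is made by fibroblasts, endothelial cells and leukocytes in the healthy organ as well.

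None of the 10 genes was called different between PF model and control lungs. A call needed a p of 0.05 or less before adjustment together with group means at least 1 log2 unit apart. Over all 19203 genes tested, 1.53% were called (0.687% higher and 0.838% lower in PF model lungs), and 2 genes (0.0104%) had an adjusted p below 0.05. Of the 10 genes, 4 were higher and 6 lower in PF model lungs, with a median log2 difference of -0.03 beside -0.01 over all genes tested. Only Vim had an unadjusted p of at most 0.05 (1 of 10, beside 4.9% of all genes), and only Vim had groups that did not overlap (1 of 10, beside 10.7% of all genes). The adjusted p values of the 10 genes ran from 0.934 to 0.996 (limma on log2(FPKM + 1), Benjamini-Hochberg over all genes tested). The level of a gene is the sum of the FPKM of its transcripts. Among the 10 genes the 95% interval of the difference was widest for Zeb1. Twist1 and Cdh2, with means under 1 FPKM, cannot fall by 1 unit on the log2(FPKM + 1) scale, so their intervals do not read directly as fold changes.

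The levels of the 10 genes ranged from among the highest to among the lowest of the genes tested. Mean FPKM over the 6 libraries was 158.9 for Vim, 50.1 for Zeb2, 47.7 for Cdh1, 43.7 for S100a4, 15.5 for Zeb1, 5.64 for Snai1, 4.22 for Twist2, 2.35 for Snai2 and 0.726 for Cdh2. Vim stood at the percentile 99.4 of all genes tested and Twist1, the lowest of the 10, at 6.48. Neighbours in this order overlapped for Zeb2 and Cdh1 (Zeb2 higher in 2 of 6 libraries), Cdh1 and S100a4 (Cdh1 higher in 5 of 6) and Snai1 and Twist2 (Snai1 higher in 5 of 6). The other neighbours kept their order in 6 of 6 libraries. With each transcript weighted by its length over that of the longest transcript of the gene, the mean was 24.0 for Zeb2, 5.42 for Zeb1 and 1.73 for Twist2. The longest transcript had 31140 bases for Zeb2 and 17603 for Zeb1. This divisor differs between genes, so the weighted means do not rank genes against each other. The levels of these 3 genes depended on how their transcripts were summed.

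**Figure D1:**
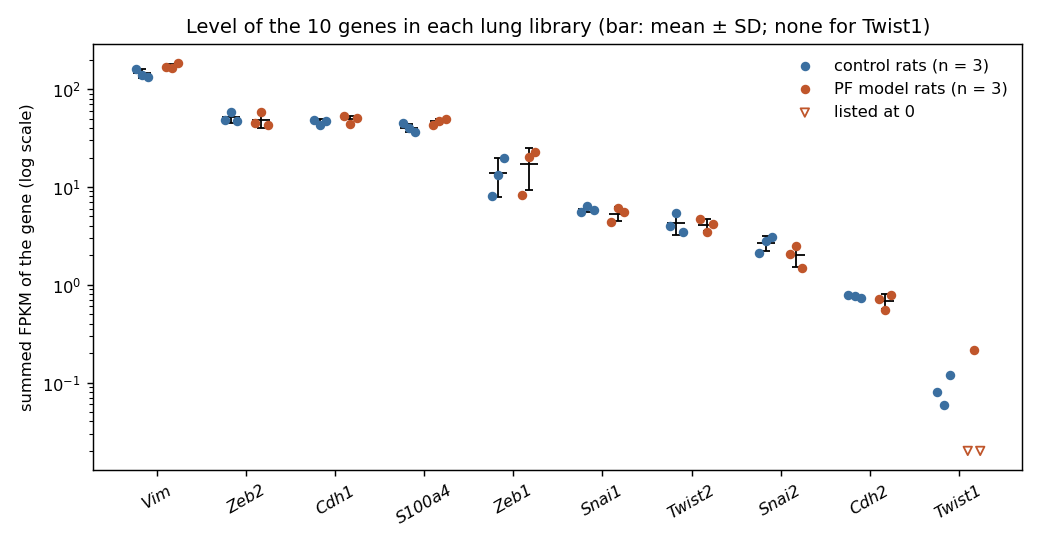
Summed FPKM of the 10 genes (vertical axis, log scale) in each of the 3 control and 3 PF model lungs, with the mean ± SD of each group; open triangles mark the 2 PF model libraries with Twist1 listed at 0, and no mean is drawn for Twist1. The genes run from Vim at 158.9 to Cdh2 at 0.726 on average, with Twist1 below, and the Vim points of the 2 groups are the ones that do not overlap.

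Snai1, the zinc finger repressor Snail, had 5.60, 6.35 and 5.85 FPKM in the control lungs and 4.35, 6.10 and 5.60 FPKM in the PF model lungs. PF model 1 was the lowest library, and the other libraries of both groups lay together. The log2 difference was -0.13 (SE 0.14, adjusted p = 0.937). Both transcripts of Snai1 are annotated, on chromosome 3 between 164274710 and 164279378 on the plus strand (coordinates as in the deposited table, whose genome build is not given in the sources used here). The longer of them, ENSRNOT00000077581, had 0.274, 0.755 and 0.644 FPKM in control and 1.51, 1.75 and 0.279 FPKM in PF model lungs. It made up 9.26% ± 3.81 of Snai1 in control and 22.8% ± 15.7 in PF model lungs (SD, n = 3), with the third PF model library inside the control range (exact permutation test, two-sided p = 0.3, where 0.1 is the smallest p that 3 against 3 libraries allow). Its log2 difference of 0.42 did not pass the test either (adjusted p = 0.945). The shorter and more abundant transcript, ENSRNOT00000012939, had 5.33, 5.59 and 5.21 FPKM in control and 2.85, 4.35 and 5.32 FPKM in PF model lungs. Its log2 difference was -0.33 (adjusted p = 0.945).

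Snai2, which encodes Slug, had 2.14, 2.84 and 3.10 FPKM in control and 2.06, 2.48 and 1.49 FPKM in PF model lungs. All PF model libraries lay below the upper end of the control values, and the groups overlapped. This was the lowest log2 difference among the 10 genes, -0.30 (SE 0.18, 95% interval -0.73 to 0.13, adjusted p = 0.934). The gene has 1 transcript in the table, on chromosome 11 from 90403333 to 90406797 on the minus strand.

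Twist1, a basic helix-loop-helix factor, rested on few reads. It had 0.0802, 0.0583 and 0.118 FPKM in control lungs, and in PF model lungs it had 0.217 FPKM in the second library and was listed at 0 in the other two. These values rested on an estimated 5.99, 4 and 9.31 reads in control and 15.4 reads in PF model library 2. Summed over all transcripts of a library, reads estimated in this way came to 35800000 to 41100000. The difference on the log2(FPKM + 1) scale was -0.02 (adjusted p = 0.992). Without PF model 2, which leaves PF model libraries listed at 0 alone, the Twist1 transcript met the rule for a call (adjusted p = 0.913).

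Twist2, the other TWIST gene, had 3.96, 5.47 and 3.47 FPKM in control and 4.68, 3.50 and 4.22 FPKM in PF model lungs. The groups overlapped fully, with a log2 difference of -0.03 (SE 0.18, adjusted p = 0.996). Between 65.1% and 82.6% of the summed FPKM came from 4 single-exon fragments of 231 to 343 bases that lie inside the Twist2 intron with no strand assigned. The spliced annotated transcript, ENSRNOT00000027597 on chromosome 9 from 98924134 to 98968510, had 1.08, 1.20 and 1.21 FPKM in control and 0.951, 0.920 and 0.734 FPKM in PF model lungs. For this transcript every PF model library was below every control library, which was also the case for 6.29% of all transcripts tested. Its log2 difference of -0.21 did not pass the test (SE 0.13, adjusted p = 0.945).

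SNAIL and ZEB proteins recognise the E-box CAGGTG, which reads CACCTG on the other strand. The promoter windows below show where this motif stands in the genes of these factors themselves. The windows of 250 bases before and 50 bases after the gene start, in RefSeq on the GRCr8 build, were searched for the motif on both strands, and 18.8% of 33469 rat promoters held at least 1 match. A window was found for 7 of the 10 genes, and the motif, in capitals, was present in Snai1 and Zeb1. Snai2, Cdh1 and Cdh2 had no entry. The Snai1 match began 142 bases before the gene start, on the plus strand at chr3:176667322-176667351. The Zeb1 matches began 95 bases before the start, at chr17:56810731-56810760, and 38 bases after it, at chr17:56810604-56810628, both on the minus strand.
Snai1: gcagcccaggcgCACCTGctctgatcccgg
Zeb1, before the start: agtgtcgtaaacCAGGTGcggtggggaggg
Zeb1, after the start: ggcggatggcccCAGGTGtaagcgc
The letters were absent from the windows of S100a4, Twist1, Twist2, Vim and Zeb2. A match is a description of the sequence and not a measured binding site.

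Zeb1, a zinc finger and homeodomain repressor, had 8.16, 13.3 and 19.9 FPKM in control and 8.31, 20.5 and 22.5 FPKM in PF model lungs. The first library of each group was low, the third was high, and the groups overlapped over most of their range. The log2 difference was 0.26 with a wide interval of -0.79 to 1.31 (SE 0.44, adjusted p = 0.966). Weighted by transcript length, Zeb1 had 5.69, 5.33 and 5.31 FPKM in control and 6.01, 4.77 and 5.41 FPKM in PF model lungs. On this scale the libraries lay close together, and the log2 difference was -0.01 (95% interval -0.25 to 0.22, adjusted p = 0.995). The coefficient of variation among control libraries was 42.7% for the plain sum and 3.95% for the weighted sum.

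The libraries differed in which Zeb1 transcript held the signal. The annotated transcript ENSRNOT00000024336, of 3272 bases on chromosome 17 from 54658463 to 54714914 on the minus strand, had 2.50, 2.66 and 15.1 FPKM in control and 1.55, 17.2 and 19.1 FPKM in PF model lungs. The assembled transcript MSTRG.15565.1, of 7836 bases, had 0.454, 10.4 and 4.12 FPKM in control and 1.78, 2.99 and 2.81 FPKM in PF model lungs. The assembled transcript MSTRG.15565.3, of 17603 bases, had 4.92, 0.191 and 0.656 FPKM in control and 4.92, 0.227 and 0.595 FPKM in PF model lungs. Each library thus gave most of its Zeb1 signal to 1 of these 3 overlapping transcripts, and libraries of 1 group led with different transcripts. MSTRG.15565.3 held 60.3% of Zeb1 in control 1 and 59.2% in PF model 1, and at most 3.29% in the other 4 libraries. These were also the libraries with the highest share of FPKM on small RNA genes, 45.6% and 46.4% beside 34.2% to 39.3% in the others, and the part of this in the Zeb1 split was not tested.

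**Figure D2:**
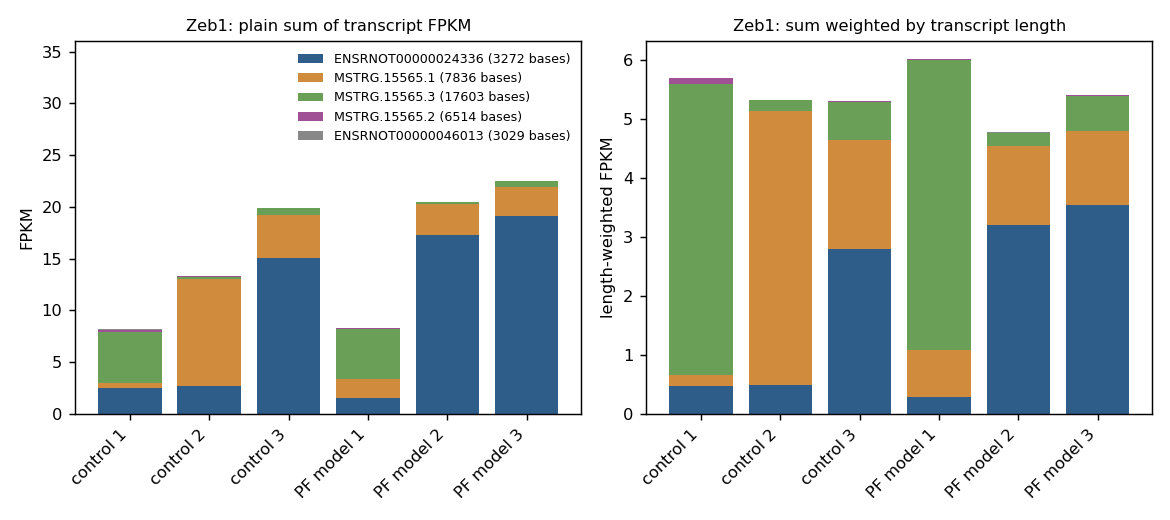
Zeb1 transcripts in each library as stacked FPKM (left panel, plain sum) and as FPKM weighted by transcript length (right panel), with transcript lengths in bases. The bars of the left panel run from 8.16 to 22.5 while those of the right panel stay between 4.77 and 6.01, and control 1 and PF model 1 are the libraries that give most of the signal to the longest transcript.

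Zeb2, the second ZEB factor, had 48.1, 58.8 and 47.3 FPKM in control and 45.3, 58.7 and 42.7 FPKM in PF model lungs. The second library was the highest of each group, and the groups overlapped. The log2 difference of the plain sum was -0.08 (SE 0.15, adjusted p = 0.969). Zeb2 carried 19 of the 40 transcripts, of which 3 are annotated and 5 lie on the opposite strand of the gene, on chromosome 3 around 29862473 to 29996865. The Zeb2 transcript with the highest mean, MSTRG.22859.1, lies on the opposite strand. It had 7.58, 8.13 and 8.32 FPKM in control and 7.90, 7.51 and 5.81 FPKM in PF model lungs. Whether strand was used in the counting is not given in the sources used here, so reads of Zeb2 and of its opposite strand may not be separated.

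The sets of Zeb2 transcripts did not move together. Weighted by length, Zeb2 had 25.5, 28.5 and 24.2 FPKM in control and 19.5, 24.6 and 21.4 FPKM in PF model lungs, with a log2 difference of -0.25 (95% interval -0.50 to 0.0033, adjusted p = 0.923). Zeb2 was also summed without transcripts classed as intronic or antisense, a setting chosen after seeing the data. Long assembled transcripts of few exons stayed in this sum. Among them was MSTRG.22857.11, of 31140 bases over 2 exons. It had 8.54, 10.5 and 3.83 FPKM in control and 0, 6.40 and 6.34 FPKM in PF model lungs. The sum was 31.3, 33.3 and 30.2 FPKM in control and 23.6, 28.2 and 28.5 FPKM in PF model lungs (log2 difference -0.24, adjusted p = 0.949). Every PF model library was below every control library in that sum, as for 5.83% of all genes in the main test. Its p before adjustment was just under 0.05. In the main test 2.73% of all genes were lower with such a p. With MSTRG.22857.11 taken out of the sum, the groups overlapped. The 3 annotated transcripts alone went the other way, with 2.98, 3.03 and 2.42 FPKM in control and 2.95, 4.58 and 4.41 FPKM in PF model lungs (log2 difference 0.37, adjusted p = 0.973). The direction of Zeb2 therefore depended on which transcripts were counted, and no version had an adjusted p under 0.05.

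In estimated reads, not scaled to depth, the annotated set held between 1.17% and 2.41% of the reads of Zeb2. It had 503, 471 and 433 reads in control and 522, 737 and 740 reads in PF model lungs. The 11 assembled transcripts on the sense strand had 23635, 23188 and 22088 reads in control and 13330, 19379 and 19851 reads in PF model lungs. The 5 transcripts on the opposite strand had 12659, 14209 and 14354 reads in control and 15577, 13572 and 10108 reads in PF model lungs. In these unscaled reads the first set was higher and the second lower in every PF model library, and the third overlapped between groups. The lower reads of the second set rested mostly on 1 assembled transcript, MSTRG.22857.11. It had 12333.5, 13949.7 and 5822.4 reads in control and 0, 8771.1 and 9074.2 reads in PF model lungs. Its own groups overlapped, and so did those of the set with its reads taken out. In FPKM, where each transcript is scaled to its own length as well as to depth, all 3 sets overlapped. The assembled sense set had 28.3, 31.2 and 27.8 FPKM in control and 20.6, 31.6 and 24.1 FPKM in PF model lungs. PF model 1 lay inside the control range of the annotated set. These FPKM sums differ from the reads by more than depth. The sets were formed after the values were seen, so no p is given for them.

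**Figure D3:**
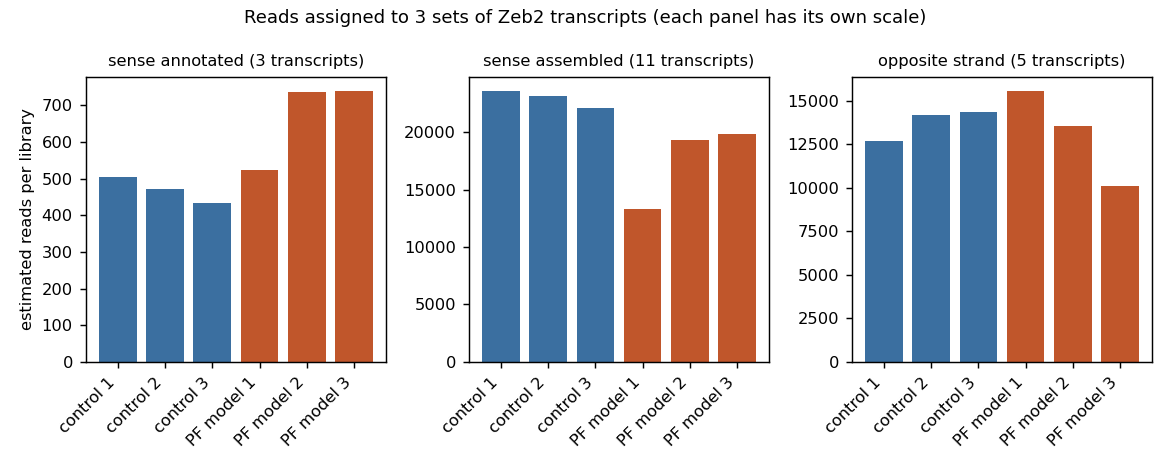
Estimated reads (vertical axis, a scale of its own in each panel) of the annotated sense transcripts, the assembled sense transcripts and the opposite-strand transcripts of Zeb2 in each of the 3 control and 3 PF model libraries. PF model libraries are above the controls in the first panel (522 to 740 beside 433 to 503), below them in the second (13330 to 19851 beside 22088 to 23635) and overlap them in the third. These reads are scaled neither to depth nor to transcript length. The FPKM of each set, which are scaled to both, overlapped between the groups. The second panel includes MSTRG.22857.11, which had 12333.5 reads in control 1 and was listed at 0 in PF model 1. With its reads taken out, the groups of that set overlapped.

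Of the 40 transcripts, 35 passed the filter, none was called (2.98% of all transcripts tested were, and 0.0277% had an adjusted p below 0.05) and 1 had an unadjusted p of at most 0.05, beside 4.53% of all transcripts. It was the assembled Zeb2 transcript MSTRG.22857.4, of 12425 bases over 5 exons, chromosome 3 from 29855736 to 29878097. It had 5.002, 4.70 and 5.56 FPKM in control and 3.71, 2.72 and 2.05 FPKM in PF model lungs, with a log2 difference of -0.69 (SE 0.18, adjusted p = 0.945). Every PF model library was below every control library. Its log2 ratio of group means was -0.85, and without PF model library 1 it was -1.09, which met the threshold for a call (adjusted p = 0.599). In all, 4 of the 35 transcripts had groups that did not overlap, beside 10.4% of all transcripts: this one, the Twist2 transcript above, and a pair of Zeb2 transcripts that were higher in PF model lungs. By direction, 2 were lower and 2 higher, beside 6.29% and 4.12% of all transcripts. Of that pair, ENSRNOT00000006350, the most abundant annotated Zeb2 transcript, had 2.79, 2.68 and 1.55 FPKM in control and 2.83, 3.00 and 3.87 FPKM in PF model lungs (log2 difference 0.36, adjusted p = 0.945). The other, MSTRG.22857.1, had 1.52, 0.179 and 1.51 FPKM in control and 2.17, 1.62 and 4.77 FPKM in PF model lungs (log2 difference 0.89, adjusted p = 0.945). With the replicate number as a block MSTRG.22857.1 met the rule for a call, with a log2 ratio of group means of 1.41 (adjusted p = 0.939).

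Cdh1, which encodes E-cadherin of the epithelial adherens junction, had 48.5, 43.3 and 47.3 FPKM in control and 52.6, 43.6 and 50.8 FPKM in PF model lungs. The second library was the lowest of each group, and the groups overlapped. The log2 difference was 0.08 (SE 0.10, 95% interval -0.15 to 0.31, adjusted p = 0.946). The annotated transcript ENSRNOT00000027346, with 16 exons on chromosome 19 from 38768467 to 38838395, held between 90.7% and 96.6% of Cdh1 in each library.

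Cdh2, which encodes N-cadherin, had 0.790, 0.766 and 0.736 FPKM in control and 0.714, 0.555 and 0.794 FPKM in PF model lungs. The third PF model library was the highest of the 6 and the second the lowest. The log2 difference was -0.07 (SE 0.09, 95% interval -0.27 to 0.14, adjusted p = 0.949). Its only transcript spans chromosome 18 from 8146971 to 8360684 on the minus strand and rested on 106 to 159 estimated reads per library.

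Cdh1 stood far above Cdh2 in every lung. Cdh1 was 61.3, 56.6 and 64.2 times Cdh2 in control and 73.7, 78.5 and 64.0 times Cdh2 in PF model lungs. The log2 ratio of Cdh2 to Cdh1 averaged -5.92 ± 0.09 in control and -6.17 ± 0.15 in PF model lungs (SD, n = 3), so the PF model mean was on the side of E-cadherin, with the third PF model library inside the control range. This ratio is given as a description, with no test.

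Vim, the main intermediate filament gene of mesenchymal cells, had 162, 139 and 134 FPKM in control and 170, 164 and 184 FPKM in PF model lungs. Every PF model library was above every control library, and PF model 2 exceeded control 1 only narrowly. The mean was 145.0 ± 14.9 FPKM in control and 172.8 ± 9.96 FPKM in PF model lungs (SD, n = 3), a log2 difference of 0.25 (SE 0.10, 95% interval 0.0032 to 0.50, adjusted p = 0.934). Its p before adjustment was just under 0.05, but the difference was under the fold threshold for a call and did not hold after adjustment over all genes. Leaving out 1 library at a time gave unadjusted p values from 0.0201 to 0.139. It stayed under 0.05 without control 1 and was above 0.05 without any other library. Among the other settings the unadjusted p was under 0.05 only with upper quartile scaling (limma, 0.0334) and with no filter (limma, 0.0471). It was above 0.05 in the rest, among them a pseudocount of 0.1 and the sum weighted by length. It was highest after TPM scaling without small RNA genes (limma, 0.138). Without PF model 3, the library with the high cardiac markers and the highest Vim, the log2 difference was 0.21. The annotated transcript ENSRNOT00000024430, on chromosome 17 from 80882666 to 80891212, held 87.1% to 95.1% of Vim.

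S100a4 had 44.6, 40.0 and 36.8 FPKM in control and 43.5, 47.3 and 49.7 FPKM in PF model lungs. PF model 1 lay below control 1, so the groups overlapped, and the other PF model libraries lay above all controls. The log2 difference was 0.21 (SE 0.10, 95% interval -0.02 to 0.44, adjusted p = 0.934). Its unadjusted p was above 0.05 with all libraries and under 0.05 only without control 1. Without PF model 3, which was also its highest library, the log2 difference was 0.16. An assembled S100a4 transcript, MSTRG.20222.2, had 4.41, 0.0548 and 1.40 FPKM in control and 5.70, 0.143 and 0.0357 FPKM in PF model lungs, and thus was highest in the same first libraries that stood apart in Zeb1. The annotated transcript ENSRNOT00000015958, on chromosome 2 from 189997129 to 189999604, held at least 86.9% in each library.

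**Figure D4:**
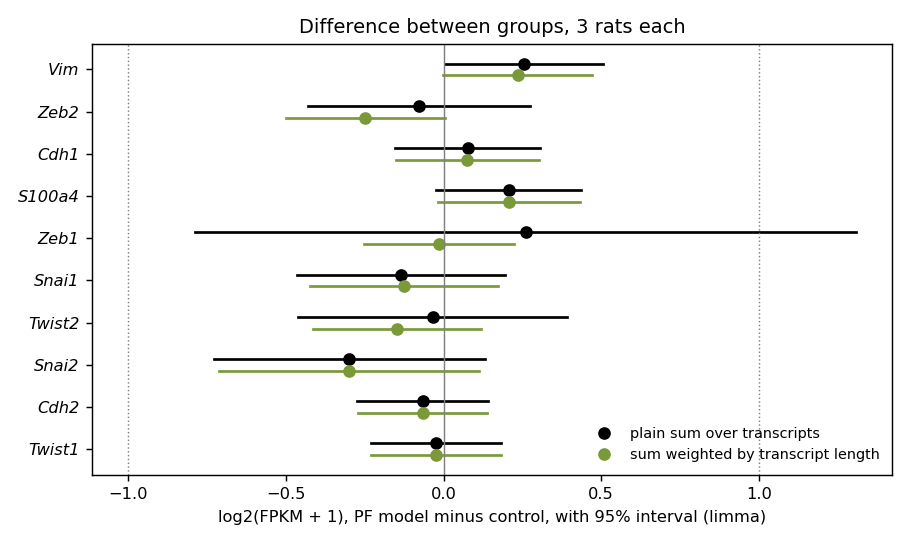
Difference in log2(FPKM + 1), PF model minus control, of the 10 genes with the 95% interval from limma (3 rats per group), for the plain sum of transcripts (black) and the sum weighted by transcript length (green); dotted lines mark 1 log2 unit. The interval of Zeb1 shrinks from -0.79 to 1.31 to -0.25 to 0.22, Zeb2 moves from -0.08 to -0.25, and Vim stays at the edge of 0 with both sums.

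Circular RNAs, which are closed circles of exons or of an intron, were few for these genes. Of 5216 circRNAs in the table, with 14904 back-splice reads, 4 came from the 10 genes and they held 5 reads in all, so none reached the 10 reads needed for a test. A circRNA of Zeb2 over 2 exons had 2 reads in PF model 2, a circRNA of Zeb1 over 5 exons had 1 read in PF model 2, a circRNA of Cdh1 over 6 exons had 1 read in control 3, and an intronic one of Vim had 1 read in control 2. They are named because there are so few, after their values were seen.

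Around the 10 genes, 10 lists of 92 pathway genes were examined, of which 87 were tested, and none of the 87 was called. Unadjusted p was at most 0.05 for 4 that were higher (Nectin2, Col3a1, Lmna and S100a16) and for Ocln, 1 that was lower (2.16% and 2.73% of all genes), and groups did not overlap for 6 higher and 3 lower (4.86% and 5.83% of all genes). The median log2 difference of the 87 genes was 0.02, and the smallest adjusted p was 0.934. By list, medians ran from -0.09 for the EMT partner transcription factors to 0.15 for the mesenchymal and matrix genes, and the epithelial adhesion and keratin genes stood at 0.11. The epithelial and the mesenchymal list thus had medians of the same sign.

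Among upstream inputs, Tgfbr2, a receptor chain for TGF-beta, had 72.1, 74.2 and 68.4 FPKM in control and 83.1, 76.1 and 83.4 FPKM in PF model lungs (log2 difference 0.17, adjusted p = 0.934). Smad2, which carries the TGF-beta signal to the nucleus, had 12.4, 16.6 and 12.2 FPKM in control and 10.1, 8.61 and 12.1 FPKM in PF model lungs (log2 difference -0.38, adjusted p = 0.934). Neither passed the test, although the groups did not overlap. Among the partners of these factors, Snai3 was under 0.2 FPKM in every library, and Tcf4, an E protein and dimer partner of TWIST, differed by 0.0037 on the log2 scale. The corepressor Ctbp2 differed by 0.28 (adjusted p = 0.934), and Esrp1 and Esrp2, splicing regulators of epithelial cells, differed by 0.25 (adjusted p = 0.934) and -0.01 (adjusted p = 0.997).

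At the junctions, Nectin2, an adhesion receptor beside the cadherins, had 16.6, 9.78 and 9.95 FPKM in control and 19.9, 15.1 and 18.7 FPKM in PF model lungs (log2 difference 0.56, adjusted p = 0.934). Its groups overlapped through control 1. Ctnnb1, the beta-catenin that binds E-cadherin, had 104, 102 and 103 FPKM in control and 117, 110 and 125 FPKM in PF model lungs (log2 difference 0.18, adjusted p = 0.934). Ocln, a tight junction protein, had 12.1, 14.7 and 11.6 FPKM in control and 10.7, 9.68 and 10.7 FPKM in PF model lungs (log2 difference -0.28, adjusted p = 0.934). The groups did not overlap for Ctnnb1 and Ocln. Krt19, an epithelial keratin, differed by 0.26 (adjusted p = 0.934), the endothelial cadherin Cdh5 by -0.04 (adjusted p = 0.987) and Cdh17 by 0.17 (adjusted p = 0.934).

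In the list of mesenchymal and matrix genes, Col3a1, a fibrillar collagen, had 174, 178 and 154 FPKM in control and 189, 204 and 233 FPKM in PF model lungs (log2 difference 0.30, adjusted p = 0.934). Sparc, a matrix protein with a high level here, differed by 0.25 (adjusted p = 0.935) with overlapping groups. Differences in this list ran from -0.34 for Thy1 to 0.30 for Col3a1. Outside this list, Lmna, a lamin of the nuclear envelope and relative of Vim, had 19.6, 18.7 and 16.1 FPKM in control and 22.4, 21.9 and 22.9 FPKM in PF model lungs (log2 difference 0.30, adjusted p = 0.934). Its own list, the other intermediate filament genes, had a median of -0.04. S100a16, a relative of S100a4, had 16.5, 15.96 and 18.7 FPKM in control and 21.1, 19.3 and 24.1 FPKM in PF model lungs (log2 difference 0.32, adjusted p = 0.934). The median of the other S100 genes was -0.0036. In Col3a1, Lmna and S100a16, each with an unadjusted p under 0.05, no PF model library fell into the control range. Plec and S100a11, the most abundant genes of the other intermediate filament and S100 lists, differed by -0.03 (adjusted p = 0.975) and 0.02 (adjusted p = 0.996). The point farthest from 0 in any list was the calcium-binding protein gene S100g, named after its values were seen, with 17.4, 13.4 and 24.0 FPKM in control and 3.82, 12.7 and 12.5 FPKM in PF model lungs (log2 difference -0.96, adjusted p = 0.934).

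**Figure D5:**
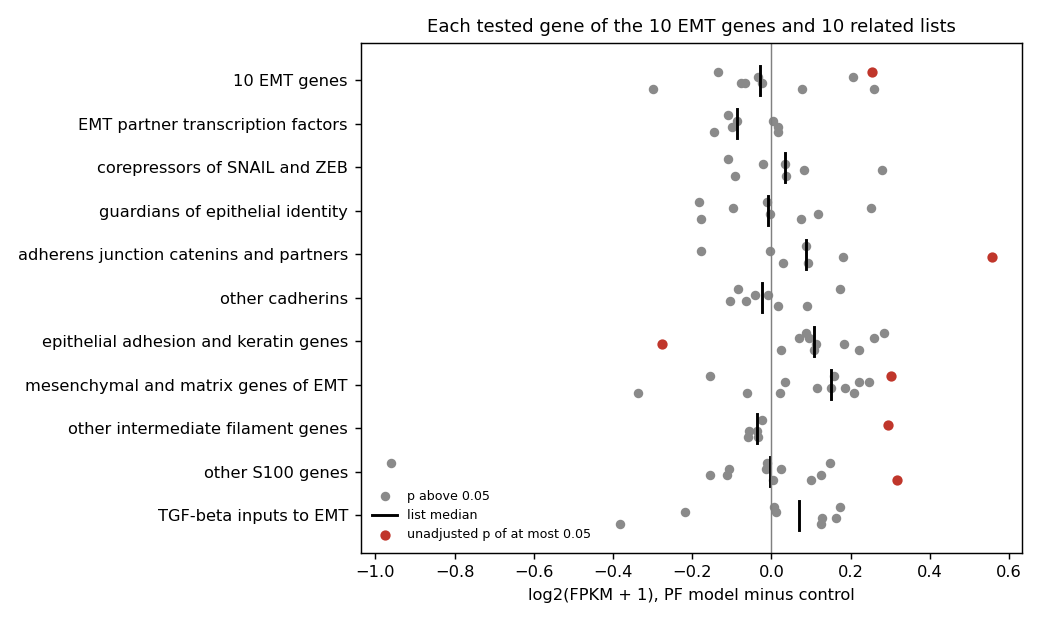
Difference in log2(FPKM + 1), PF model minus control (horizontal axis), of each tested gene among the 10 EMT genes and the 10 related lists, with list medians as bars and genes with an unadjusted limma p of at most 0.05 in red. List medians lie between -0.09 and 0.15, and the red points are Vim, Nectin2, Ocln, Col3a1, Lmna and S100a16.

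The patterns most like each of the 10 genes over the 6 libraries were looked up among 132 genes of the pathway and cell type lists, as a description. Cdh1 was closest to Ctnna1, the alpha-catenin of the same junction (Pearson r = 0.953), S100a4 to Col3a1 (r = 0.913) and Vim to Aqp5, a water channel of alveolar type 1 cells (r = 0.981). Zeb2 was closest to Upk3b, a mesothelial gene (r = 0.993), Zeb1 to Ngp (r = 0.886), Snai1 to S100a13 (r = 0.915), Snai2 to Tgfbr1 (r = 0.910), Twist1 to Synm (r = 0.925), Twist2 to Tagln (r = 0.821) and Cdh2 to Kdr (r = 0.929). With 6 libraries and 132 candidates such values carry no test. They rest on the plain sum of transcripts, and the levels of Zeb1, Zeb2 and Twist2 depended on how transcripts were summed.

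The lung identity of the samples was plain from its defining markers, with summed FPKM of 5 alveolar type 2 genes from 4256 to 5936 in control and from 5014 to 6562 in PF model lungs. No tested gene of 12 cell type marker lists was called or had an unadjusted p of at most 0.05 (1.53% and 4.9% of all genes). Myh6 and Calb2 did not pass the filter and were not tested. None of the markers found by name was at 0 in all libraries. The 5 fibroblast markers summed to 130 to 140 FPKM in control and 130 to 167 FPKM in PF model lungs, the 5 smooth muscle markers to 101 to 138 and 99.5 to 180 FPKM, and the 5 mesothelial markers to 6.22 to 11.4 and 7.42 to 13.5 FPKM. The 5 cardiac muscle markers summed to 6.88 to 11.4 FPKM in control and 6.41 to 27.7 FPKM in PF model lungs, with the upper end in PF model 3. The part of these cell types in the values of Vim, S100a4 and Zeb2 was not tested.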

How the data were processed

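rRNA-depleted libraries of 3 control and 3 PF model rat lungs were sequenced by the authors as paired reads of 150 bases. Per their methods the reads were mapped with Bowtie2 and TopHat2, while the submitters' processing notes name HISAT2, StringTie and TopHat; the genome build is not given in the sources used here. The deposited FPKM values were estimated by the authors per transcript with StringTie and Ballgown on an assembly merged over all libraries. The deposited circRNA counts are of back-splice reads, which the authors identified with TopHat-Fusion and CIRCexplorer and quantified with scripts of their own.

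FPKM was summed per gene name having an annotated transcript, and genes above 0 in at least 3 of 6 libraries were kept. log2(FPKM + 1) was compared with limma 3.58.1 in R 4.3.3 (two-sided, trend), so folds of low genes are understated. Estimated reads were the deposited coverage signal, which the authors computed with StringTie, times length over 150. Shares of transcripts were compared with an exact permutation test over 20 regroupings. No member circRNA reached 10 reads, so the planned edgeR test was not run. The fits were run on simulated data with planted differences far larger than those of the 10 genes. That run does not show whether small differences would be found. The 10 genes and all lists were chosen with earlier results of these data known. Named were all 10 genes, some of their leading, annotated or lowest-p transcripts, and, per pathway list, the called, smallest-p and most abundant genes. Gsc, Kdm1a, Afdn, Smad4, Foxj1, Trp63, Pecam1, Marco, Trac and Cd79a were not found by name. Alternatives are given in the closing section.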

Additional observations from a re-analysis of the deposited data

How the results depend on the processing

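None of the 10 genes was called under any of the alternatives, which were other pseudocounts, filters, scalings, tests and sums, the replicate block, and leaving out each library. Cdh1, Cdh2, Snai1, Snai2, S100a4 and Vim kept their direction in all of them, although a filter of mean FPKM of at least 1 leaves out Cdh2 and Twist1. Without 1 library their log2 differences still ran from 0.0236 to 0.1565 for Cdh1, -0.1113 to -0.0084 for Cdh2, -0.2202 to -0.0165 for Snai1, -0.4119 to -0.1683 for Snai2, 0.143 to 0.278 for S100a4 and 0.1981 to 0.3356 for Vim. Directions turned for Twist1, Twist2, Zeb1 and Zeb2. The log2 difference of Twist2 was 0.0149 after TPM scaling without small RNA genes, Zeb1 was -0.014 weighted by transcript length, and Zeb2 was 0.37 over annotated transcripts only. Leaving out each library gave log2 differences from -0.12 to 0.0236 for Twist1, -0.15 to 0.12 for Twist2, -0.045 to 0.68 for Zeb1 and -0.21 to 0.0207 for Zeb2. The scalings moved the median of all genes by less than 0.1. Among all genes, 293 were called (132 higher, 161 lower), against 80 with the stricter filter and 518 with annotated transcripts only, and 302 to 396 without 1 library. Among all transcripts, 1934 were called, against 1066 with the stricter filter, 1180 with an F test on FPKM, and 2084 to 2498 without 1 library. Fewer features were tested under the stricter filter; the cause of the other changes was not tested.

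Of the 35 transcripts of the 10 genes, 0 were called in the main test and 0 to 2 without 1 library. Without control 1 it was MSTRG.15565.1 of Zeb1, and without control 2 MSTRG.22860.2 of Zeb2 and MSTRG.37552.1 of Twist2. Without PF model 1 it was MSTRG.22857.4 of Zeb2, without PF model 2 the Twist1 transcript (all remaining PF model libraries are then listed at 0), and without PF model 3 MSTRG.22857.2 of Zeb2 and ENSRNOT00000077581 of Snai1. With the replicate number as a block, 1 transcript of the 35 was called, MSTRG.22857.1 of Zeb2 (adjusted p = 0.939), and 311 genes and 1943 transcripts overall. Same-numbered libraries did not deviate together (r = 0.0766, 0.0327 and -0.0722 over 13896 genes), so the numbers were not taken as pairs. Single values did match by number, such as the share of MSTRG.15565.3 in Zeb1 (60.3% in control 1 and 59.2% in PF model 1). The unadjusted limma p of Zeb1 was 0.129 with the block and 0.571 without it. Transcript shares and the cadherin ratio were not analysed with the block. The alternatives for circRNAs were not run, since none of the 4 had 10 reads. Twist1 and the circRNAs rest on few reads.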
